A study of Rattus norvegicus with 6 samples.

Results

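The cytosolic ribosomal protein genes encode the proteins of the large and the small subunit of the ribosome. They were read here as the probe sets whose single gene symbol in the platform annotation starts with Rpl or Rps, leaving out the Rps6k kinases. The rule found 64 probe sets for 44 genes among 8740 probe sets and 4736 gene symbols. Each gene was represented by the probe set with its highest mean signal over the 6 arrays. The large subunit had 30 genes and the small subunit had 14. RNA of rat liver was hybridised to Affymetrix RG_U34A arrays, with 1 array per sample and 3 arrays in each of 2 diet groups. All rats were male Sprague Dawley and were kept for 3 weeks on a liquid diet given by total enteral nutrition, that is, infused directly into the gut. Corn oil made up 5% of the diet in Control rats, which received 187 kcal daily per kg of metabolic body mass. It made up 70% in NASH rats, named for non-alcoholic steatohepatitis, which received 220 kcal daily per kg, so the groups differed in energy supply as well as in fat. The labels name no genetic change in either group. The labels do not say whether the samples of a group were separate animals, and the spread behind each p-value may thus be technical.

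A ribosome reads a messenger RNA on its small subunit and joins amino acids on its large subunit. The liver exports plasma proteins in bulk and holds many ribosomes. Messengers of ribosomal proteins are known for a run of pyrimidines at their very start, the terminal oligopyrimidine or TOP tract. Through it their translation follows nutrient and growth signals that pass through the mTOR kinase, so that supply of these proteins can change with no change in their messengers. Arrays measure the messengers alone.

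The annotated starts of several members show this tract, and these sequences are printed because they are the regulatory feature that the genes are known to share. Each line gives 40 bases around the transcription start in the RefSeq annotation of the rat build GRCr8, with the start after the first 20 bases. Capitals mark an unbroken run of C and T that begins with C, has at least 5 bases and begins within 5 bases of the annotated start. Where C or T also stood directly before, as in Rpl39 and Rps9, only the part from the first C within these 5 bases was marked and counted. The whole run of C and T may thus begin farther upstream. The first 5 genes are those with such a run for which every NASH array lay below every Control array, and the last is the gene with the highest difference of all.
Rpl39 (chrX:121195877-121195916, minus strand): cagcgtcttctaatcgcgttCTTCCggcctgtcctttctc
Rplp0 (chr12:46718371-46718410, minus strand): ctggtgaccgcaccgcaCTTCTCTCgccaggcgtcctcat
Rps23 (chr2:23814497-23814536, plus strand): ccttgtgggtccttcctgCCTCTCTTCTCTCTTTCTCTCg
Rps3a (chr2:173827023-173827062, minus strand): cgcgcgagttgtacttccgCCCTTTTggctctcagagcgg
Rps9 (chr1:74430418-74430457, minus strand): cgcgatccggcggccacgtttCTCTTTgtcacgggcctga
Rpl23 (chr10:83272165-83272204, minus strand): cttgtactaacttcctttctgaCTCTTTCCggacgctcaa
The marked part was 5 bases long in Rpl39, 6 in Rps9, 7 in Rps3a, 8 in Rplp0 and Rpl23, and 21 in Rps23. A promoter was matched for 38 of the 44 genes, and 18 of them (47.4%) held such a run, against 4656 of 27457 promoters (17%). The start of Rps9 was matched by symbol, to an entry whose gene ID differs from that of the platform annotation. Over the 300 bases of each promoter, read on both strands, 9 members (23.7%) held the letters CTTCCGG, against 9.22% of all promoters. AAGATGG was found in 8 (21.1%), against 7.3%. TATAAA was found in 5 (13.2%), against 14.3%. These are matches of letters at 1 annotated start per gene and say nothing of a factor bound there.

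Before the members are described, some arrays have to be set apart. All 14 listed hepatocyte genes were measured on every array, and their summed deposited signal ran from 51374 to 70433 in Control and from 43195 to 57473 in NASH. NASH 2 was scanned 1 time, per the instrument records, and each other array 2 times. It also carried signal of fat and muscle genes. Over the 8 measured of 9 fat markers, the summed signal was 3627 in NASH 2 and 449 to 587 on the other 5 arrays, where Fabp4 and Plin1 lay near 0. Over the 7 measured of 9 muscle markers, it was 2185 in NASH 2 and 56.4 to 123 elsewhere. The 12 measured of 13 leukocyte markers summed to 962 in NASH 2 and 447 to 694 elsewhere, and the 8 stellate and endothelial markers to 922 and 283 to 766. Of those above the filter, 6 of 6 fat and 4 of 5 muscle markers had a higher mean in NASH. So did 6 of 8 leukocyte and 5 of 6 stellate and endothelial markers. Of all these markers 0 were called at an adjusted p under 0.05 in limma, against 0.133% of all probe sets. Of the 6 fat markers above the filter, 3 were higher on every NASH array than on every Control array, against 6.54% of all probe sets. These were Cidea, Ucp1 and Lipe. Cidea had 76.7, 380.2 and 77.8 in NASH and 25.5, 17.996 and 44.8 in Control. Lipe was only just apart, with 61.99 on NASH 1 and 61.28 on Control 3. Control 3 had the highest ratio of 3′ to 5′ signal for beta-actin, 5.07 against 2.15 to 2.93 on the others, and for Gapdh, 2.04 against 1.08 to 1.29. An exact two-sided permutation test gave p = 0.7 for actin and 0.4 for Gapdh, where 0.1 is the smallest that 3 against 3 arrays allow. The trimmed mean of the deposited signal ran from 73.6 to 117. The part of these differences in the results was not tested, and the counts below are therefore given without those arrays too.

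NASH was set against Control to see which liver messengers differ after a diet very high in polyunsaturated fat. Most ribosomal protein genes read slightly lower in NASH, and none passed the test. Of the 44 genes, 41 passed the filter on dim probe sets, and 38 of them had a lower mean in NASH (92.7%), against 52.9% of all probe sets tested. Called genes, those with a Benjamini-Hochberg adjusted p under 0.05 in limma over 5244 probe sets, numbered 0 of 41 members and 7 of all, or 0.133%. At an unadjusted p under 0.05, 3 members lay lower and 0 higher, where 7.86% of all probe sets passed and 4.04% lay lower. The median difference, NASH minus Control on the log2 scale, was −0.18 over the members, a decrease of 12.0%, and −0.021 over all probe sets tested. The quartiles of the members were −0.30 and −0.089. The whole range ran from −0.72 in Rpl30 to 0.11 in Rpl23. In 9 members (22%) every NASH array lay below every Control array, against 7.76% of all probe sets. In 0 members did every NASH array lie above, against 6.54%. Without NASH 2, 40 of 41 members were lower with a median of −0.22. Of the 41, 19 did not overlap, against 11.7% of all probe sets on the same 5 arrays. Without Control 3, 36 of 41 were lower with a median of −0.13, and 15 of 41 did not overlap, against 13.1% of all probe sets.

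**Figure D1:**
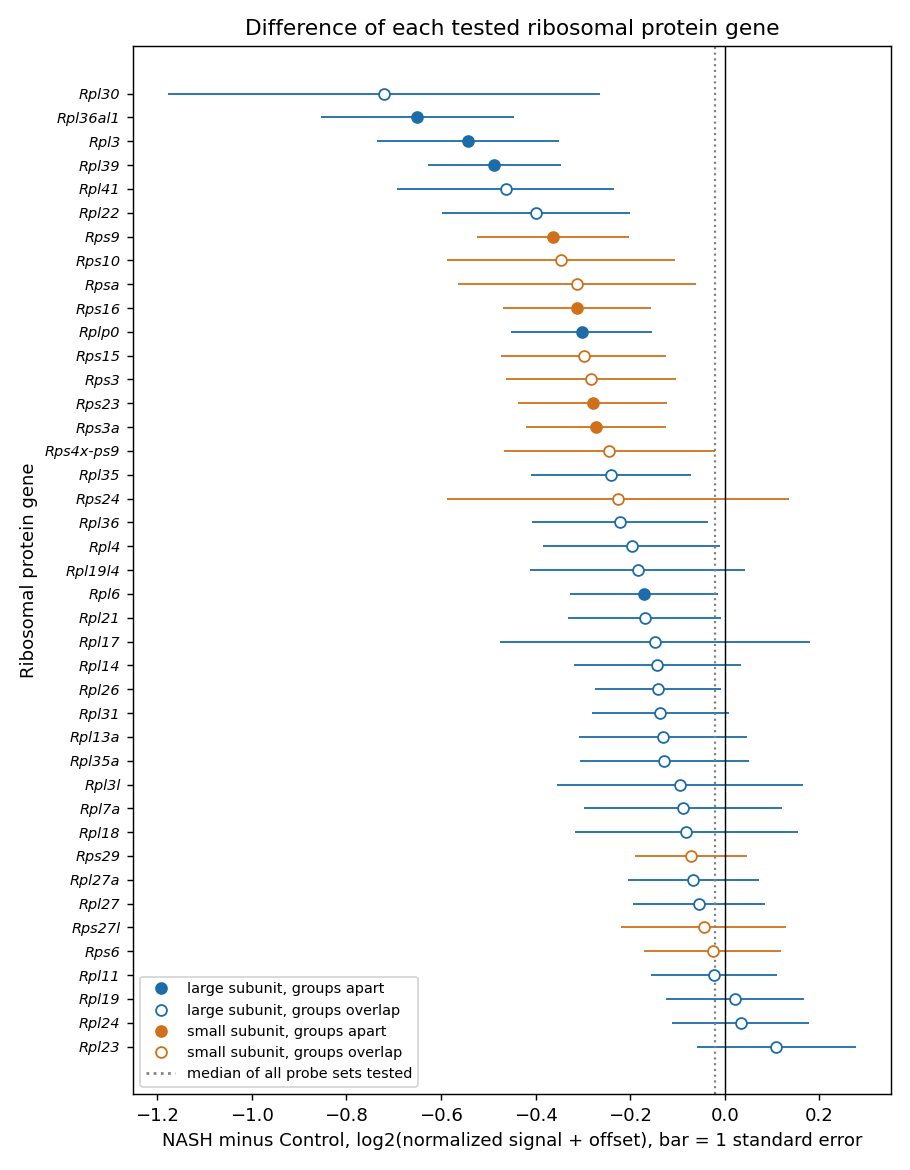
Points give the NASH minus Control difference of each of the 41 tested genes in log2(normalized signal + offset), with bars of 1 standard error, coloured by subunit and filled where the groups did not overlap. Most points sit left of the dotted median of all probe sets tested (−0.021), only Rpl23, Rpl24 and Rpl19 lie above 0, all 3 turned negative without NASH 2 and without scaling, where the median of all probe sets also shifted to −0.17, and 0 of 41 passed the adjusted test.

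The 3 members with an unadjusted p under 0.05 all belong to the large subunit. Rpl39, a small protein that lines the tunnel through which the new peptide leaves, had normalized signals of 1032, 1143 and 1124 in Control and 826, 756 and 769 in NASH. The groups were well apart, and all 3 NASH arrays read close together. The difference was −0.49 ± 0.14 (SE, n = 3 per group), a decrease of 28.7%, with an unadjusted p of 0.00866 and an adjusted p of 0.452 in limma. This was the lowest adjusted p of any member, and it ran from 0.271 to 0.902 over the alternatives. Rpl36al1, whose symbol marks a copy related to Rpl36a, had 412, 453 and 611 in Control and 320.3, 289 and 317 in NASH. Control 3 was the highest array, and the groups did not overlap. The difference was −0.65 ± 0.20, with an adjusted p of 0.503 in limma.

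Rpl3, which reaches toward the site of peptide bond formation, read 900.4, 1196 and 853 in Control against 773, 642 and 597 in NASH. Its groups did not overlap, with Control 2 far above the rest. The difference of −0.54 ± 0.19 had an adjusted p of 0.556 in limma. A second probe set of Rpl3 gave −0.0063 ± 0.20, so the 2 readings of this gene disagreed in size.

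In the stalk, which recruits the elongation factors, only Rplp0 was read through a single symbol and above the filter. Its signals were 1172, 1449.5 and 1352 in Control and 1153, 1081 and 981 in NASH. The groups did not overlap, but Control 1 and NASH 1 nearly met. The difference was −0.30 ± 0.15 with an adjusted p of 0.619 in limma.

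The small subunit had 4 genes without overlap. Rps9 sits at the entry of the messenger channel and had 773, 949.9 and 926 in Control and 675, 740.1 and 638 in NASH, a difference of −0.36 ± 0.16. Rps16, whose tail reaches the transfer RNA, had 1488, 1619 and 2034 against 1321, 1477 and 1313, a difference of −0.31 ± 0.16. In both genes the highest NASH array, NASH 2, lay just under the lowest Control array, Control 1. Rps23, a protein of the decoding centre, had 955, 1204 and 964 against 860.2, 889.9 and 809, a difference of −0.28 ± 0.16. Rps3a, on the side where the messenger leaves, had 1081, 1339 and 1292 against 1040.0, 1062 and 961, a difference of −0.27 ± 0.15. Control 2 was the highest array of Rps23 and Rps3a. Their adjusted p-values in limma ran from 0.619 in Rps9 and Rps16 to 0.652 in Rps23.

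Rpl6, named after its values were seen because it completes the 9 genes without overlap, had 506, 491 and 497 in Control and 451, 449 and 428 in NASH. Its arrays were the tightest of the 9, and its difference was also the smallest, at −0.17 ± 0.16. The standard error is larger than the spread of these 6 values because limma draws each gene's variance toward that of probe sets of like brightness. Of the 9 genes, Rplp0, Rps16 and Rpl6 were read by probe sets with the name suffix _s_at, which marks likely cross-hybridization. Rpl3 was read by one with the suffix _i_at.

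**Figure D2:**
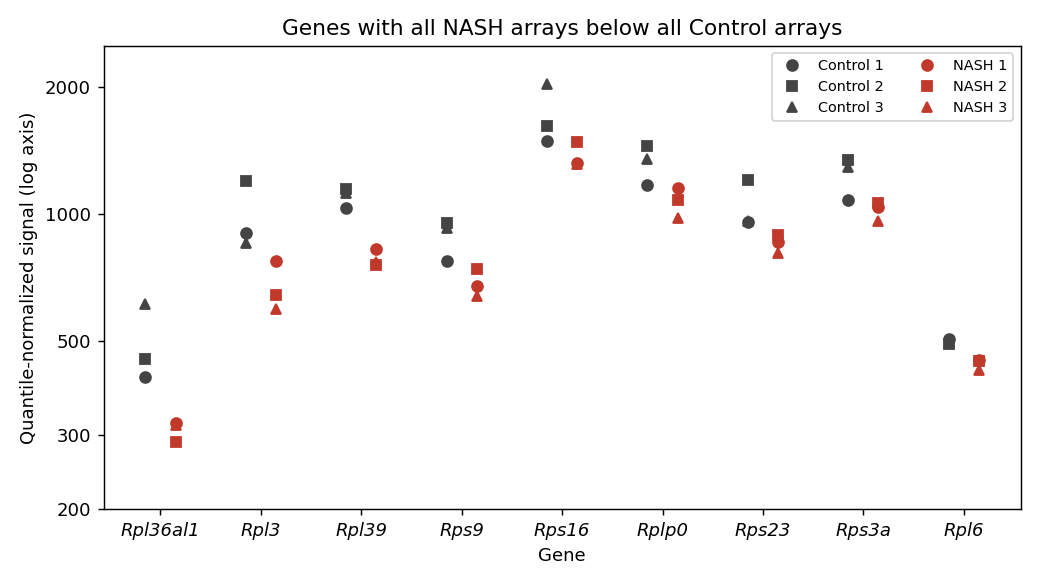
Quantile-normalized signal on a log axis for the 9 genes whose NASH arrays (red) all lay below their Control arrays (grey), with one marker shape per replicate number. The gap between groups is widest in Rpl36al1, Rpl3 and Rpl39 and narrow in Rplp0 and Rps16, where the lowest Control and highest NASH arrays nearly meet.

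At the other end, Rpl23 had the highest difference. This protein of the subunit interface can also bind the p53 regulator Mdm2, and it had 916, 1114.5 and 974 in Control and 932, 1257.5 and 1065 in NASH. The groups overlapped, and NASH 2 was the highest array. The difference was 0.11 ± 0.17. Rpl24 had a difference of 0.033 ± 0.15 and Rpl19 one of 0.021 ± 0.15, and both proteins form bridges between the subunits. Without NASH 2 alone, Rpl23 gave −0.0028, Rpl24 −0.012 and Rpl19 −0.059. In the table as deposited, where all probe sets shifted together to a median of −0.17, Rpl23 gave −0.10, Rpl24 −0.16 and Rpl19 −0.20, so that Rpl23 and Rpl24 stayed above that median. Second probe sets gave −0.057 for Rpl23 and −0.15 for Rpl24. Rpl11, which binds the 5S ribosomal RNA and Mdm2, gave −0.022 ± 0.13 by one probe set and 0.058 ± 0.14 by the other.

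Some of the largest differences were uncertain. Rpl30, the lowest of all, was dim, with 19.4, 19.6 and 30.7 in Control and 18.03, 5.33 and 20.5 in NASH. The groups overlapped, and NASH 2 alone was far below the rest. Its difference of −0.72 ± 0.46 was −0.22 without that array. Rpl41, a very short protein at the subunit interface, had 393, 309 and 521 in Control and 270.4, 283 and 313 in NASH. NASH 3 lay above Control 2, so the groups overlapped. Its difference of −0.46 ± 0.23 was −0.27 without Control 3.

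Among the genes listed for the exit tunnel, Rpl39 included, 6 of 8 tested were lower with a median of −0.14. That list also holds Rpl24, described above as forming a bridge between the subunits, which was not lower. Rpl35, at the tunnel's mouth, had −0.24 ± 0.17, and Rpl26, which lies beside it, had −0.14 ± 0.13. Second probe sets gave −0.022 ± 0.18 for Rpl35 and −0.25 ± 0.14, without overlap, for Rpl26. Around the decoding centre all 3 measured genes (Rps3, Rps15 and Rps23) were lower, between −0.30 and −0.28. On the messenger exit side, Rpsa had −0.31 ± 0.25 beside Rps3a, with 1260.4 on Control 3 and 635 to 775 on the other arrays. The value of Rpsa therefore rested on 1 array. Of 9 listed genes mutated in Diamond-Blackfan anaemia, an inherited failure of red cell formation, 4 passed the filter. All 4 were lower, with a median of −0.18, but Rpl11 only by −0.022 ± 0.13, and its other probe set gave 0.058. Rps10, a protein of the messenger entry side, had the largest of these differences, −0.35 ± 0.24.

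Rps6, the substrate of the S6 kinases, gave 1321, 1276 and 1548 in Control and 1231, 1459.9 and 1376 in NASH. The groups overlapped fully and the difference was −0.026 ± 0.14. A second probe set gave −0.24 ± 0.17. Rps27a, the ubiquitin fusion gene, was not read through a single symbol.

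Several ribosomal protein genes serve as reference genes in quantitative PCR, where a stable level is assumed. Of 7 listed, 5 were tested, with a median of −0.070, and 0 were called, against 0.133% of all probe sets. Rplp0 stood lowest at −0.30 and was the only one without overlap. Rpl13a had −0.13 ± 0.18, Rps29 −0.070 ± 0.12 and Rpl27 −0.055 ± 0.14, and Rpl19 had the 0.021 given above. Second probe sets gave −0.019 for Rpl13a, −0.11 for Rps29 and −0.15 for Rpl27, so the order of these genes depended on the probe set. Rpl27a, another bright member, had −0.067 ± 0.14, but gave 0.0084 after cyclic loess.

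The 3 genes under the filter had signals near the array background. Rpl5, which carries the 5S RNA, had 8.82 to 15.7 over the 6 arrays. The pseudogene Rps2-ps1 had 6.27 to 12.0. Rplp1l3 had 0.839 to 7.89, and its synonyms in the RefSeq table, Bpifb5 and Bpifb9, do not name a ribosomal protein. Of the 5 tested genes whose symbol marks a paralog or pseudogene, Rpl36al1, Rps4x-ps9, Rpl19l4, Rpl3l and Rps27l, all 5 were lower with a median of −0.18. Messengers of near-identical copies may share these probe sets and are uncertain for that reason. The 36 other tested genes had the same median, −0.18, with 33 lower.

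Probe sets that had not been chosen gave further readings of the same samples, though not independent ones. Of 17 tested, 16 were lower, with a median of −0.15. Of 15 genes with at least 2 tested probe sets, 12 had all probe sets on the lower side and 3 (Rpl11, Rpl23 and Rpl24) differed in sign. In size, probe sets differed most in Rpl3, as given above. In Rpl21, picked out after its values were seen, another probe set gave −0.53 ± 0.17 without overlap while the chosen one gave −0.17 ± 0.16. Probe sets that list several ribosomal protein symbols are not named here. Of 37 tested, 27 were lower with a median of −0.15, 10 (27%) did not overlap, against 7.76% of all probe sets, and 0 were called, against 0.133%.

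Both subunits were compared across the arrays. All 13 tested small subunit genes were lower in NASH, with a median of −0.28, and 4 of them did not overlap. In the large subunit 25 of 28 were lower, with a median of −0.15, and 5 did not overlap. These are 30.8% of the small and 17.9% of the large subunit genes, against 7.76% of all probe sets. The gap between these medians was −0.13. The gap rested on 1 array, since without Control 3 the small subunit median was −0.13 and the gap was 0.023. Within each array, the small subunit median minus the large subunit median was 0.013 ± 0.13 (SD, n = 3) in Control and −0.053 ± 0.041 in NASH, a difference smaller than the spread of the Control arrays.

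Each member was also set against its own mean over the 6 arrays, and the median of these deviations was taken per array. It was −0.0037 in Control 1, 0.082 in Control 2 and 0.15 in Control 3. In NASH 1 it was −0.13, in NASH 2 0.0066 and in NASH 3 −0.15. NASH 2, the array with fat and muscle signal, thus lay just above Control 1, and the groups overlapped on this summary. The large subunit medians did not overlap, at 0.063, 0.084 and 0.099 in Control and −0.074, 0.0098 and −0.15 in NASH. The small subunit medians did, at −0.046, 0.073 and 0.26 in Control and −0.16, 0.0022 and −0.21 in NASH. Control 3, which also had the highest actin ratio, stood apart in the small subunit, 0.16 above its large subunit median, where Control 1 was 0.11 below. Over the 41 genes, the highest array was Control 3 in 16, Control 2 in 14, Control 1 in 6, NASH 2 in 4, NASH 1 in 1 and NASH 3 in 0. The lowest array was NASH 3 in 17, NASH 1 in 10, Control 3 in 6, NASH 2 in 5, Control 2 in 2 and Control 1 in 1. NASH 3 was thus most often the lowest, and it also had the lowest trimmed mean signal before normalization, 73.6.

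**Figure D3:**
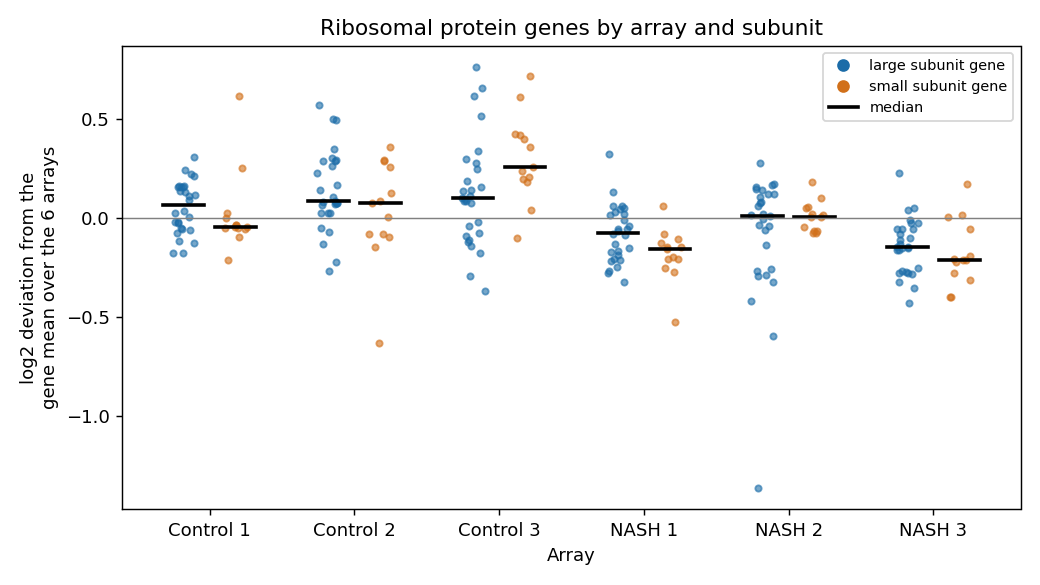
Each point is 1 gene's log2 deviation from its own mean over the 6 arrays, for 28 large subunit (blue) and 13 small subunit (orange) genes, with black bars at the medians. The small subunit median is highest in Control 3 (0.26), NASH 2 sits near 0 for both subunits, and the single low point in NASH 2 is Rpl30.

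The members also took a smaller share of the signal in NASH. They held 2.70%, 2.78% and 3.03% of the summed deposited signal in Control and 2.50%, 2.57% and 2.37% in NASH. The groups did not overlap. The means were 2.84% ± 0.173 (SD, n = 3) in Control and 2.48% ± 0.0997 in NASH. The large subunit held 1.68% ± 0.0390 in Control and 1.49% ± 0.0749 in NASH, and the small subunit 1.15% ± 0.139 and 0.989% ± 0.0325. This share needs no scaling between arrays, but it depends on every other signal and is led by the brightest probe sets. In whole tissue, fewer cells of a type and less RNA per cell cannot be told apart.

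**Figure D4:**
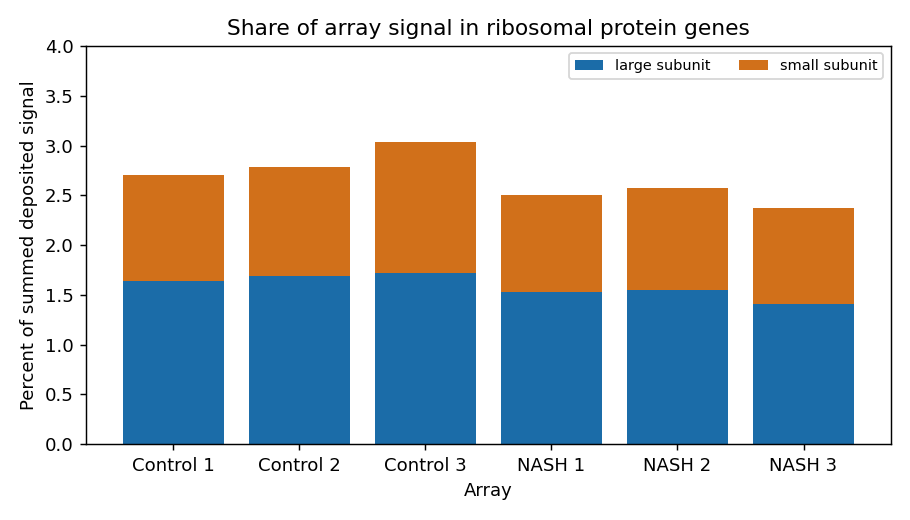
Stacked bars give the percent of each array's summed deposited signal held by the large subunit (blue) and small subunit (orange) genes. The 3 Control arrays lie between 2.70% and 3.03% and the 3 NASH arrays between 2.37% and 2.57%.

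The wash record of the instrument was blank for Control 2 and NASH 3 and filled for the other 4 arrays. On those 4 arrays alone 35 of 41 members were lower, with a median of −0.16. Of the 41, 13 did not overlap, against 20.6% of all probe sets there. In the pair with blank records the median deviation was 0.082 in Control 2 and −0.15 in NASH 3. With this record as a block the counts and the median were those given above. Both groups hold the same mix of filled and blank records, so this block could not change them.

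Members with and without a run of C and T at the annotated start used both had medians below 0. The 18 tested genes with it had a median of −0.23, with 16 lower, and the 18 without it had a median of −0.16, with 17 lower. The groups share arrays, and the difference was not tested. Rpl39, the fourth lowest, and Rpl23, the highest, both carry the run, as their printed starts show. It was not found at the annotated start used for Rpl36al1 and Rpl3. A run at another start of a gene would be missed.

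Other genes of the translation machinery were read from lists, and 0 members of any were called, against 0.133% of all probe sets. All 3 measured elongation factors were lower, with a median of −0.19. Eef1g, a subunit of the exchange factor, had −0.38 ± 0.20 without overlap, Eef2, which moves the ribosome along, −0.19 ± 0.19, and Eef1a1, which brings transfer RNAs, −0.17 ± 0.15. Of 9 other TOP messengers, 6 were lower, with a median of −0.17. Among them Rack1, a scaffold bound to the small subunit, had −0.44 ± 0.23 and Naca, a chaperone of new peptides, −0.40 ± 0.22. Cnbp, a nucleic acid binding protein, had 0.27 ± 0.15, with every NASH array above Control. Eef1g, Eef2 and Eef1a1, all 3 measured elongation factors, stand on both lists, so the lists are not separate readings.

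Outside these lists the values lay on both sides of 0. Of 18 initiation factors and their kinases, 10 were lower with a median of −0.055. Eif2ak3, the kinase PERK that slows initiation under stress of the endoplasmic reticulum, had −1.01 ± 0.35 with an adjusted p of 0.550 in limma. Of 12 ribosome biogenesis genes, 6 were lower with a median of −0.013, and Nop58, a core protein of small nucleolar particles, had 0.78 ± 0.28. Of 14 mitochondrial ribosomal protein genes, 5 were lower with a median of 0.12, and Mrpl23 had −0.29 ± 0.19 without overlap. Of 9 genes of the S6 kinases and mTOR signalling, 5 were lower with a median of −0.18. Mlst8, a subunit of both mTOR complexes, had −1.02 ± 0.35, Rictor, of the second complex, −0.45 ± 0.22, and Rps6kb1, the S6 kinase that phosphorylates Rps6, 0.50 ± 0.25. The lowest adjusted p on any of these lists was 0.544, for Mlst8, in limma.

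The order of the members and of all probe sets was followed through each alternative setting. The median of the members was below that of all probe sets tested in every setting tried. It ran from −0.35 without scaling, where all probe sets stood at −0.17, to −0.13 without Control 3. The blocks, the variance prior and the intensity trend could not change either median, so those settings do not test this order.

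**Figure D5:**
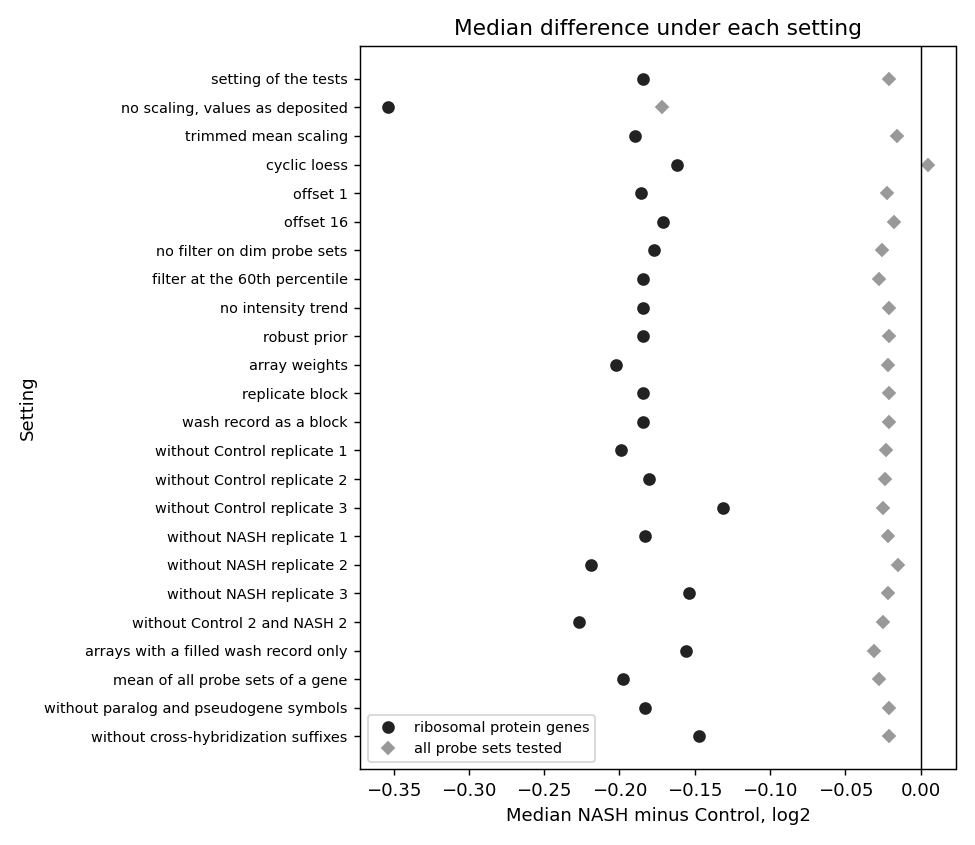
Black points give the median NASH minus Control difference of the ribosomal protein genes and grey diamonds that of all probe sets tested, under each setting of the processing. The members lie left of all probe sets on every line, closest without Control replicate 3 and farthest left without scaling, where both medians moved. Lines for the blocks, the variance prior and the intensity trend repeat the medians of the reported setting.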

How the data were processed

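Per the submitters' processing notes, the deposited values are MAS5 signal intensity on a linear scale; neither a version nor a scaling target is given in the sources used here. The instrument records of the authors hold array type, tissue and scan settings, other information with no expression values, per the file headers. The groups were taken from sample titles, since every description repeats the wording of 1 Control sample. Signals were quantile normalized, and an offset of 2.21 (the 10th percentile) was added before log2. The 5244 of 8740 probe sets (59 array controls left out) with a mean above the 40th percentile (3.94) were tested with limma 3.58.1 in R 4.3.3 (intensity trend, no covariate), checked on simulated data. Differences on this scale understate changes of dim probe sets. Gene symbols came from the platform annotation: 7006 probe sets had 1 symbol, 308 several and 1426 none; 43 of 44 gene IDs were in the RefSeq table. Promoters came from RefSeq, GRCr8. No protein sequence was used.

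The members, the gene lists and the settings were chosen with earlier results of these data known. Named were the 5 highest and 5 lowest differences, the 4 smallest p in each direction, the 5 brightest and 3 dimmest genes, the stalk and reference genes, Rps6, Rps27a, genes whose probe sets differ in sign and those below the filter; of other role groups up to 2 and of context lists up to 3 genes with the smallest p. Alternatives changed the scaling, offset, filter, variance prior, weights, blocks, threshold, probe sets and arrays, and none was added later. The number of arrays limits the precision.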

Additional observations from a re-analysis of the deposited data

How the results depend on the processing

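At an adjusted p under 0.05, 0 ribosomal protein genes were called by limma in every setting run, and 3 at an unadjusted p under 0.05. More members were lower than higher in all settings, of which the blocks, the variance prior and the intensity trend could not change this count. With each array left out in turn, 35 to 40 of the 41 members were lower. Between 11 and 19 of the 41 did not overlap, against 11.5% to 15.1% of all probe sets. Over these settings the median ran from −0.22 to −0.13. That of the large subunit ran from −0.19 to −0.11, that of the small subunit from −0.37 to −0.13, and the gap from −0.19 to 0.023. Without scaling the medians were −0.35 for all members, −0.31 for the large and −0.48 for the small subunit, where that of all probe sets was −0.17. Without Control 2 and NASH 2 the large subunit median was −0.21, and 21 of the 41 members did not overlap, against 21% of all probe sets. Leaving out probe sets with the name suffix _s_at or _i_at kept 31 members, with 28 lower and a median of −0.15. Probe sets with the suffix _g_at were kept. Of these 31, 5 (16.1%) did not overlap, against 7.76% of all probe sets. The 10 tested members with such a suffix were all lower, with a median of −0.30, and 4 (40%) did not overlap. Rpl30, the lowest member, is among these 10.

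Calls over all probe sets, 7 in the reported setting, were 14 without scaling, 0 without the filter (633 at an unadjusted p under 0.05), 3 without the intensity trend, 18 with array weights, 3 with the wash record as a block, 14 at an adjusted p under 0.1, 412 at an unadjusted p under 0.05, 15 without Control 2 and NASH 2, 2 on arrays with a filled wash record, and 0 to 17 with an array left out. Of the 7 calls 71.4% were higher in NASH, against 57.1% without scaling. Replicate numbers did not pair the samples (deviations of same-numbered arrays correlated at 0.049, −0.021 and 0.073). With the replicate block 1 probe set was called. The counts of members lower and without overlap were as reported, and this balanced block could not change them.

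Genes with differences near 0 changed sign. With each array left out in turn, Rpl19 ran from −0.059 to 0.075, Rpl24 from −0.029 to 0.093, Rpl23 from −0.0028 to 0.21, Rpl11 from −0.065 to 0.0092, Rps6 from −0.081 to 0.058, Rpl27a from −0.15 to 0.023 and Rps29 from −0.13 to 0.031. Without scaling, where all probe sets shifted together to a median of −0.17, Rpl19 gave −0.20, Rpl24 −0.16 and Rpl23 −0.10. Rpl19 also gave −0.034 with trimmed mean scaling, −0.0056 with cyclic loess and −0.089 without Control 2 and NASH 2. Rpl24 gave −0.0078 with array weights and −0.057 as the mean of its probe sets. Rpl11 gave 0.0073 without Control 2 and NASH 2, 0.032 on arrays with a filled wash record and 0.018 as the mean of its probe sets, and Rpl27a gave 0.0084 with cyclic loess. The causes were not tested.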
